A study of Mus musculus with 15 samples.

Results

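The proteasome genes described here were all genes of the deposited tables whose symbol is Psma, Psmb, Psmc, Psmd, Psme, Psmf or Psmg followed by a number, and 48 of 20207 genes matched. They were grouped by name into the 20S core, with 8 outer-ring (Psma) and 11 inner-ring (Psmb) genes, the ATPase base (Psmc, 6 genes), the 19S non-ATPase subunits (Psmd, 14 genes), the activators and inhibitor (Psme and Psmf, 5 genes) and the assembly chaperones (Psmg, 4 genes). At least 1 count in every sample was found for 45 of them, and these 45 were tested. The other 3, Psma8, Psmb8 and Psmb9, are described by their counts.

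The proteasome is the protease that degrades ubiquitylated proteins in the cytosol and nucleus. Its barrel-shaped 20S core holds the catalytic beta subunits between outer rings of alpha subunits that gate the entrance, and a 19S particle docks onto the ends, where non-ATPase subunits bind and deubiquitylate the substrate and a ring of ATPases unfolds it and feeds it into the core. Other activators can cap the core instead, and dedicated chaperones that are absent from the finished particle build the core and the ATPase ring. In mammalian cells the subunit genes are known targets of the transcription factor NRF1 (Nfe2l1), which acts through antioxidant response elements in their promoters.

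The samples were NIH3T3 cells, fibroblasts of mouse embryonic origin, carrying a stable DD-sfGFP transgene, which codes for superfolder GFP fused to an FKBP-derived destabilizing domain (DD), and their transcripts were counted by RNA-seq. The DD is folded while the ligand Shield-1 (S1) is bound and unfolds once S1 is removed. The control group (5 samples, no stress, time 0) kept S1, and the other groups were collected 45 min (3 samples), 135 min (3 samples) and 405 min (4 samples) after S1 removal. The question was which transcripts respond to an unfolded protein in the cytosol and nucleus. All samples, controls included, carried DD-sfGFP, which was integrated with a transposon, and the cells were a pool sorted for high GFP. S1 was taken away with purified FKBP protein that was added to the medium, so the time points also differ from the controls in that protein. Nothing in the labels says that replicates came from separate cultures, so p-values measure only the spread between these samples.

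Total counts ranged from 6652539 (control replicate 3) to 30258404 per sample. By the slope of expression on transcript GC content the samples split into 2 library sets: control replicate 2, 45-min replicate 3 and 405-min replicates 1, 2 and 4 formed set 2, and the other 10 samples, with all 135-min samples, formed set 1. A difference between sets was found for 5146 of the 10276 genes tested, and control replicate 3 stood apart from all other samples on the first principal component. The 405-min group therefore holds 3 set 2 samples of 4 and the control group 1 of 5, and results at 405 min are given from the fit with a term for group and from a fit with an added term for library set. The 8 fibroblast markers summed to 15349 to 18333 CPM (counts scaled to a common library size with TMM factors) in controls and 12031 to 16612 CPM at 405 min, whereas haematopoietic, epithelial and endothelial markers summed to at most 4.82 CPM in any sample. In bulk samples, less RNA per cell and fewer cells with a transcript cannot be told apart.

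Levels per transcript length were compared between the genes as the deposited RPKM (reads scaled by transcript length and library size). RPKM is not scaled for GC content, and the part of GC content in these levels was not tested. In controls the 7 tested outer-ring genes were the most even group, from 99.6 ± 13.8 RPKM for Psma1 to 188 ± 54.9 for Psma4 (SD, n = 5 for each), a range of 1.9 times. The inner-ring genes were uneven: Psmb7, a catalytic subunit, was at 193 ± 48.0 RPKM, while the catalytic partners Psmb5 and Psmb6 were at 23.6 ± 12.8 and 28.3 ± 17.3 RPKM (SD, n = 5 for each). The size of this gap differed between samples. Psmb7, Psmb5 and Psmb6 were at 189, 40.4 and 54.5 RPKM in control replicate 2 (set 2) and at 114, 5.07 and 6.49 in control replicate 3. The ATPase genes ranged from 17.1 ± 10.1 RPKM (Psmc5) to 88.6 ± 24.7 (Psmc4) and the non-ATPase genes from 5.59 ± 0.834 (Psmd10) to 116 ± 28.7 RPKM (Psmd7, SD, n = 5 for each). Psmd9, Psmd10 and Psmd5 are named as subunits but serve as chaperones of the ATPase ring, and Psmd9 and Psmd10 were the lowest of the Psmd genes. The activator, inhibitor and Psmg chaperone genes all lay at or below the 24.8 ± 8.05 RPKM of Psme3 (SD, n = 5). At 405 min the highest mean of the ATPase genes (Psmc4) was 3.3 times the lowest (Psmc5, 52.7 RPKM), and in controls it was 5.2 times. These means mix the library sets unequally. In set 1, Psmc4 and Psmc5 were at 216 and 40.6 RPKM at 405 min (replicate 3). The set 1 controls were at 46.8 to 112 and 2.72 to 19.5 RPKM. In set 2 they were at 127 to 189 and 53.7 to 60.4 RPKM at 405 min, beside 91.8 and 30.5 in control replicate 2. A narrowing within a set was not tested. In the order of levels, neighbours such as Psma2 and Psma3 (152 ± 32.2 and 152 ± 38.2 RPKM) differed by less than their SD, whereas Psmb10 and Psmb11, near the bottom, were at 3.34 ± 0.967 and 0.121 ± 0.0841 RPKM (SD, n = 5 for each).

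**Figure D1:**
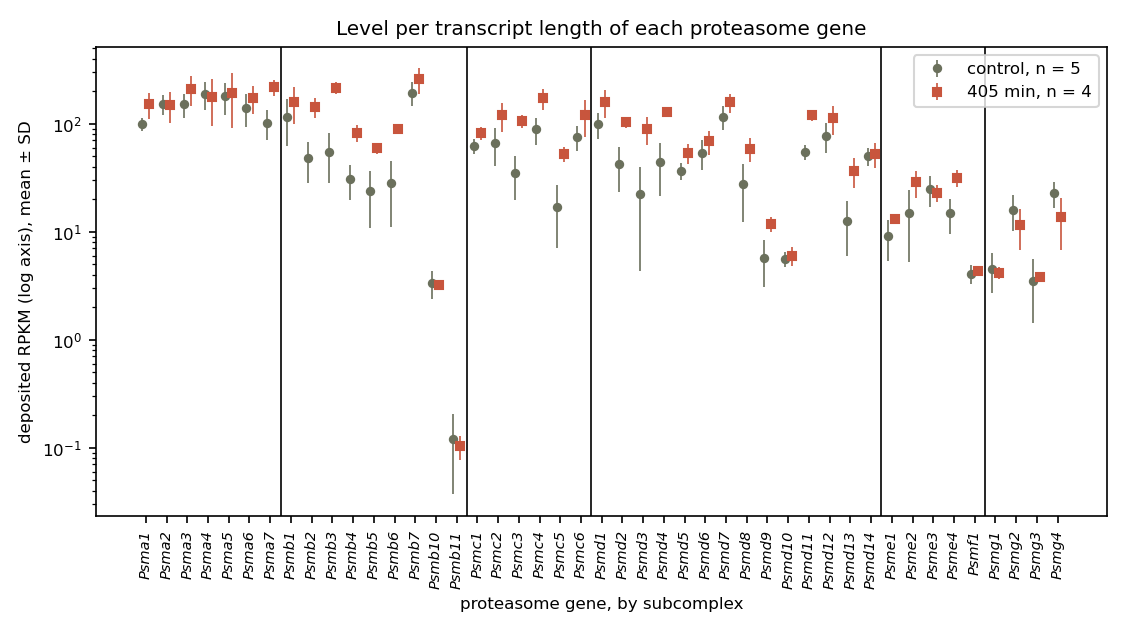
Deposited RPKM (log axis) of the 45 tested proteasome genes, grouped by subcomplex, in 5 control samples (grey circles) and 4 samples at 405 min (red squares), as mean ± SD. The outer-ring genes form a level group between 99.6 and 188 RPKM in controls, whereas Psmb2 to Psmb6 have control means of 23.6 to 55.1 RPKM and means of 59.3 to 216 RPKM at 405 min.

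Psmb3, Psmb5, Psmb6 and Psme4 were all higher at 405 min, as given below, and their promoters are shown as examples with a site near the start, not as a typical sample. The RefSeq promoter table (build GRCm38.p6, 250 bases before to 50 after a start) held 43 promoters for 40 of the 48 genes. Psma8, Psmb1, Psmb2, Psmb7, Psmc3, Psmd3, Psmd7 and Psmg2 had none in it. Capitals mark 2 motifs searched on both strands, TGACNNNGC, the core of the antioxidant response element, and CCAAT, the NF-Y box. The sequences read 5′ to 3′ on the strand of the gene, from chr11:70525107-70525406 (Psmb6, plus strand), chr14:54617946-54618245 (Psmb5, minus), chr11:30771525-30771824 (Psme4, plus) and chr11:97703184-97703483 (Psmb3, plus).
Psmb6: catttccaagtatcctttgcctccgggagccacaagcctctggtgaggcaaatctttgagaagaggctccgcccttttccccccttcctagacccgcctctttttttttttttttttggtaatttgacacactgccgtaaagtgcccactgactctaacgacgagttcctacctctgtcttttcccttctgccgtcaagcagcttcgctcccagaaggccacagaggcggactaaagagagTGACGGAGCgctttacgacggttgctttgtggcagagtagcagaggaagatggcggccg
Psmb5: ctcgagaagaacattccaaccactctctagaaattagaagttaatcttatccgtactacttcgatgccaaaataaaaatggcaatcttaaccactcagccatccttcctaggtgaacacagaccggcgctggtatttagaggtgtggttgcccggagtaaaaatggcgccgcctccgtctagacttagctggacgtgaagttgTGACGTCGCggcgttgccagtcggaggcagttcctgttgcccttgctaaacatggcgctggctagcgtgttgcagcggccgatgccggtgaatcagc
Psme4: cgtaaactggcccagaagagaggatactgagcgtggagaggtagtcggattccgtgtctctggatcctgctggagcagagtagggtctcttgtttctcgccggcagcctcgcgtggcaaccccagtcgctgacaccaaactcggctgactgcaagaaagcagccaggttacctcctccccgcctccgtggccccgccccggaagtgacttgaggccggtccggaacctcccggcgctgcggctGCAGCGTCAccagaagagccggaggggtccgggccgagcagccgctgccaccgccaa
Psmb3: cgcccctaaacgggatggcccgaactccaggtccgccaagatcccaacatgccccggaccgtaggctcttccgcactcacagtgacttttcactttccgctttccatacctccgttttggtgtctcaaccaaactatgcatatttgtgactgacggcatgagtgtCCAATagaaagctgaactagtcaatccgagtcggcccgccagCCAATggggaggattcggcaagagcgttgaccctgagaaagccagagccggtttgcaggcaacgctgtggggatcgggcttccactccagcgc
The element core began 9 bases before the start in Psmb6, 47 in Psmb5 and, on the other strand, 7 in Psme4, and the CCAAT boxes of Psmb3 began 85 and 43 bases before it. TGACNNNGC was found in 6 of the 43 promoters (14%; Psmb5, Psmb6, Psmc6, Psmd9, Psmd12 and Psme4), against 12.4% of all 32851 promoters in the table. Of the 15 members with a promoter that were higher at 405 min with group alone, 4 had this motif and 4 had a CCAAT box. The latter was found in 14 (32.6% against 37.4%). Another motif, GAANNTTC, the core of a heat shock element, was found in 3 (6.98% against 7.86%; Psmb5, Psmb9 and Psmf1) and is not in capitals. No site of one motif overlapped a site of another. These matches describe the letters in the windows and do not show binding.

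At 45 min no proteasome gene differed from control (edgeR quasi-likelihood test, adjusted p under 0.05), and neither did any other gene (0% of 10276 called higher or lower). No member had an unadjusted p under 0.05 in edgeR with group alone or in DESeq2. With library set in the edgeR fit, Psmb6 and Psmd3 were higher and Psma5 and Psmg4 lower at that level. None of these passed the adjusted threshold. With group alone the inner-ring genes had a median log2 fold change of 0.27 and the outer-ring genes of −0.49, beside 0.02 over all genes tested. With library set and control replicate 3 left out, these medians were 0.19 and −0.15, beside 0.01. No member had every 45-min sample above, or every one below, the 5 controls, beside 0.457% and 0.448% of all genes.

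At 135 min 1 member, Psme4, was higher and none was lower, beside 0.564% of all genes called higher and 0.895% lower. At 135 min and an unadjusted p under 0.05, edgeR gave 10 members higher and 1 lower (Psmd10), beside 4.58% and 7.35% of all genes, and DESeq2 called 2 higher and none lower at an adjusted p under 0.05, beside 1.57% and 2.62%. Every 135-min sample lay above every control for 9 members, beside 4.79% of all genes. These were Psma6, Psma7, Psmb1, Psmb3, Psmb7, Psmc2, Psmc4, Psmd1 and Psme4. Every one lay below the controls for 1 member, Psmd10, beside 4.75%. With library set in the fit, 8 members were higher (Psma7, Psmb3, Psmb6, Psmc2, Psmc3, Psmd2, Psmd3 and Psme4), beside 3.06% of all genes.

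At 405 min 18 of 45 members were higher and 1, Psmg4, was lower, beside 9.99% and 13.4% of all genes (edgeR, adjusted p under 0.05). The higher members were Psma7, Psmb2 to Psmb6, Psmc2 to Psmc5, Psmd2, Psmd3, Psmd4, Psmd8, Psmd9, Psmd11, Psmd13 and Psme4, with log2 fold changes from 0.77 ± 0.20 (SE) for Psmc2 to 2.04 ± 0.40 (SE) for Psmd3. The median over the 45 members was 0.38, beside −0.00 over all genes tested. With library set in the fit, 29 members were higher and none was lower, beside 6.17% and 6.87% of all genes, and all 18 were among the 29. Of the lower side, 1 member (Psmg4) had an unadjusted p under 0.05 in that fit, beside 14.7% of all genes, and DESeq2 with group alone called 1 lower, beside 19.2%. With library set in the fit and control replicate 3 left out, 34 members were higher at 405 min (10.4% of all genes) and 11 at 135 min (4.72%). Every 405-min sample lay above every control for 16 members, beside 6.75% of all genes, and below for none, beside 6.43%. Directly against 135 min, 9 members were higher at 405 min and none was lower (none at an unadjusted p under 0.05 in edgeR or DESeq2 either), beside 2.24% and 2.82% of all genes. The comparisons with control share the same 5 control samples.

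**Figure D2:**
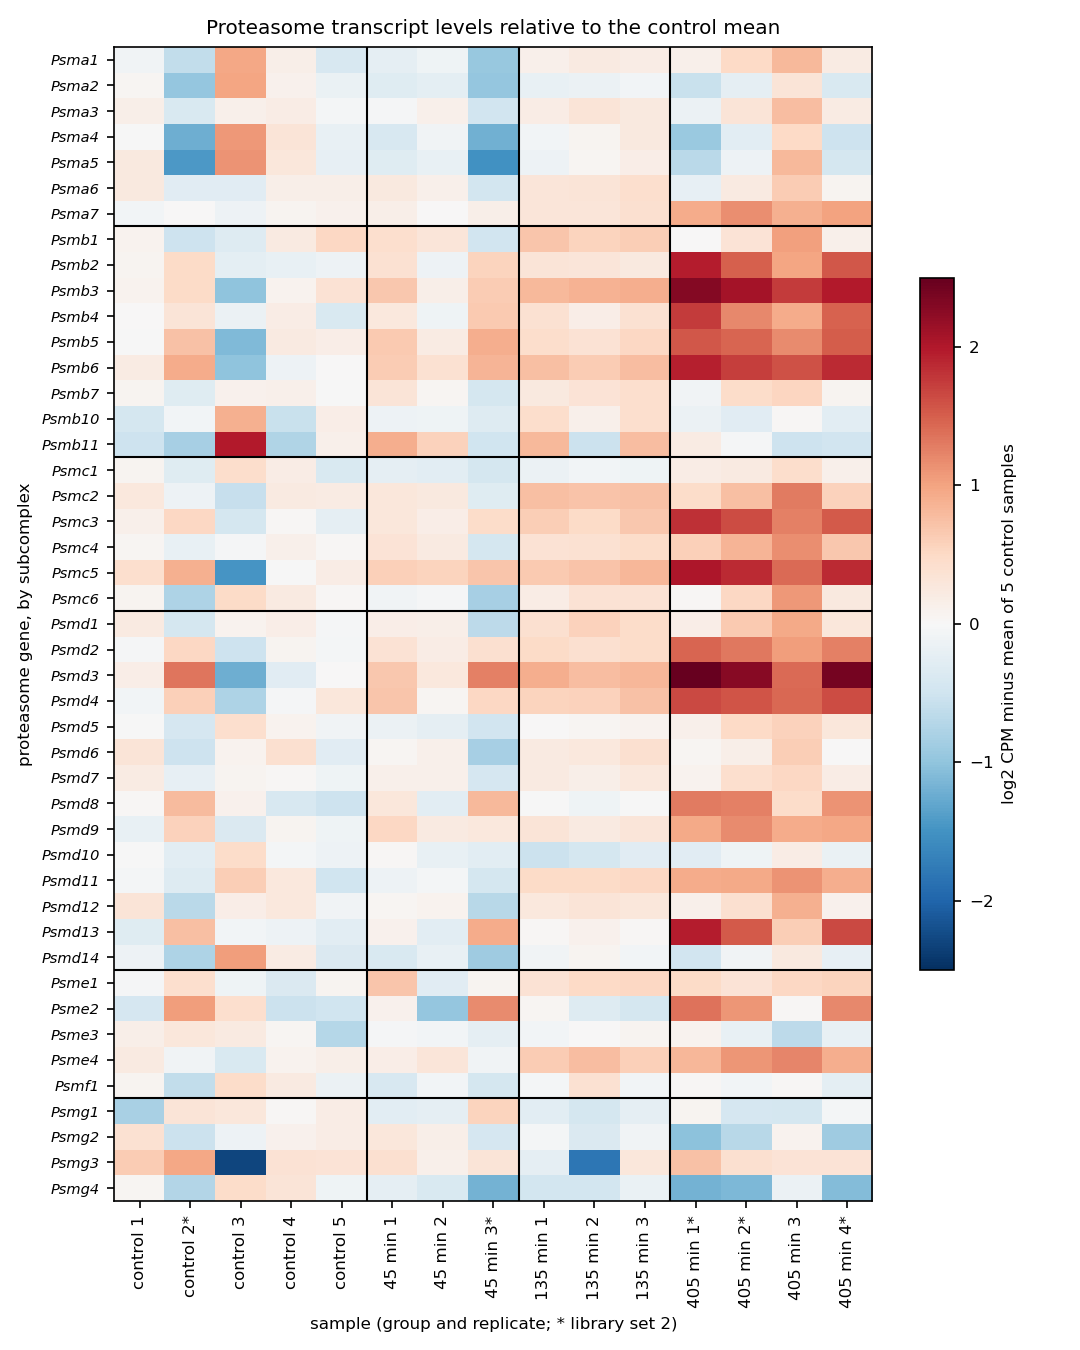
Log2 CPM of 45 proteasome genes (rows, by subcomplex) in 15 samples (columns, asterisk for library set 2), each minus the mean of the 5 control samples of that gene. Red is above and blue below the control mean, with colours saturating at the ends of the scale. Psmb2 to Psmb6, Psmc3, Psmc5, Psmd2, Psmd3 and Psmd4 are red in all 4 samples at 405 min, and for Psma1 to Psma6 the 3 set 2 samples at 405 min lie below the set 1 sample.

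Among the outer-ring genes, which form the gate of the core, Psma7 was the member that rose in the fit with group alone, at 405 min. It was at 188, 198, 178, 205 and 210 CPM in control replicates 1 to 5 and at 215, 198 and 214 CPM at 45 min. It was at 241, 241 and 259 CPM at 135 min and 369, 439, 365 and 391 CPM at 405 min. The 4 late samples lay above all others, and the 135-min samples lay above all controls. At 405 min the log2 fold change was 1.0 ± 0.10 (SE, adjusted p = 4.82e-05 in edgeR), and it was 0.96 ± 0.10 with library set in the fit. The lowest value of the group was that of Psma4, −0.39 ± 0.38 (SE, adjusted p = 0.439 in edgeR), which turned to 0.30 ± 0.26 with library set, neither past the threshold. With library set, 4 of the 7 tested genes were higher, Psma1, Psma3, Psma6 and Psma7, and the group median moved from 0.19 to 0.60. Psma3, Psma4 and Psma5 have copies elsewhere in the genome of at least 95% identity to their coding sequence, so reads could be split and their values are uncertain. Psma8, which codes for a testis-specific outer-ring subunit, had no count in any of the 15 libraries, which allows up to 0.0117 CPM (3 of 255811183 counts, counting error only).

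In the fit with group alone the inner-ring genes held the largest group median at 405 min, 1.31 on the log2 scale, and 5 of 9 tested genes rose. With library set their median was 1.04, beside 1.03 for the ATPase genes. With control replicate 3 also left out it was 0.90, below the 1.02 of the ATPase genes. Of the non-catalytic subunits, Psmb3 was at 83.7, 109, 39.0, 83.7 and 100 CPM in control replicates 1 to 5 and at 126, 87.4 and 122 CPM at 45 min. It was at 137, 143 and 147 CPM at 135 min and at 387, 334, 263 and 311 CPM at 405 min. Control replicate 3 was the lowest sample, the 135-min samples lay above all controls and the 405-min samples above all others. The log2 fold change was 1.96 ± 0.23 at 405 min (SE, adjusted p = 0.000126 in edgeR), 0.77 ± 0.25 at 135 min (adjusted p = 0.174) and 1.19 ± 0.27 between the 2 times (adjusted p = 0.023). Psmb3 also has 2 near-identical copies elsewhere, on chromosomes 16 and 18.

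Psmb2, another structural inner-ring gene, was at 90.4, 119, 72.9, 75.4 and 79.2 CPM in control replicates 1 to 5 and at 336, 245, 171 and 253 CPM at 405 min. It was at 111, 79.3 and 126 CPM at 45 min and 108, 107 and 102 CPM at 135 min. The early samples overlapped the controls, and the late samples lay above all others with the set 1 sample (replicate 3) lowest. Psmb4 was at 63.4, 78.2, 56.6, 70.9 and 48.4 CPM in controls, 75.5, 58.0 and 98.6 at 45 min, 81.4, 69.8 and 81.9 at 135 min and 211, 144, 119 and 173 CPM at 405 min. Again the late samples lay above all others and the set 1 sample was the lowest of them. The log2 fold changes at 405 min were 1.52 ± 0.20 for Psmb2 (SE, adjusted p = 0.000247 in edgeR) and 1.35 ± 0.20 for Psmb4 (adjusted p = 0.000472), and with library set they were 1.20 ± 0.14 and 1.06 ± 0.16. Psmb1, the fourth non-catalytic gene, was at 0.38 ± 0.25 without (adjusted p = 0.247) and 0.79 ± 0.15 with library set (adjusted p = 0.00274).

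Of the catalytic subunits, Psmb6 (caspase-like activity) was at 63.6, 105, 27.4, 50.5 and 55.2 CPM in control replicates 1 to 5 and at 86.0, 71.4 and 98.6 CPM at 45 min. It was at 93.0, 86.0 and 94.3 CPM at 135 min and 211, 184, 166 and 201 CPM at 405 min. Control replicate 2, of library set 2, lay above the 135-min samples, and the 405-min samples lay above all others. Psmb5 (chymotrypsin-like activity) was at 39.1, 65.3, 18, 45.4 and 43.7 CPM in controls, 61.7, 45.0 and 73.5 at 45 min, 53.0, 50.1 and 56.2 at 135 min and 115, 107, 88.6 and 112 CPM at 405 min, with the late samples again above all others. The log2 fold changes at 405 min were 1.65 ± 0.26 for Psmb6 (SE, adjusted p = 0.000956 in edgeR) and 1.31 ± 0.26 for Psmb5 (adjusted p = 0.00395). Psmb5 has a copy on chromosome 7 of 98.9% identity. Psmb7 (trypsin-like activity), the most abundant inner-ring gene, was at 0.26 ± 0.17 (adjusted p = 0.248) and, with library set, at 0.51 ± 0.13 (adjusted p = 0.016 in edgeR). All 3 catalytic genes of the standard core thus passed the threshold with library set and 2 of 3 without it.

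The inducible inner-ring genes, which replace the standard catalytic subunits in the immunoproteasome, are Psmb8, Psmb9 and Psmb10, and of these only Psmb10 was tested and it passed in neither fit. Psmb10, the partner of Psmb7, was at 6.92, 9.02, 17.4, 6.39 and 10.6 CPM in control replicates 1 to 5 and 8.50, 7.73, 9.56 and 7.75 CPM at 405 min, with overlapping groups and a log2 fold change of −0.25 ± 0.26 (SE, adjusted p = 0.478 in edgeR). Per length it was at 3.34 ± 0.967 RPKM in controls (SD, n = 5) and 3.23 ± 0.372 at 405 min (SD, n = 4), beside 193 ± 48.0 and 257 ± 68.5 RPKM for Psmb7. Psmb8, the partner of Psmb5, was at 0 in 12 libraries and summed to 6.9 counts in all. Psmb9, the partner of Psmb6, was at 0 in all 5 controls and at 2, 2, 1 and 5 counts in the 405-min samples, with 21 counts in all, too few to test. The interferon response genes, which mark the usual inducer of these subunits, summed to 39.4 to 77.4 CPM in controls and 82.3 to 87.0 CPM at 405 min. Of these, Tap1, a subunit of the antigen peptide transporter, was at 1.60 (log2 fold change, adjusted p = 0.0304 in edgeR) in the fit with group and did not pass with library set (adjusted p = 0.124 in edgeR). Their part in the values above was not tested. Psmb11, the thymus-specific inner-ring gene, had the lowest value of the group, −0.54 ± 0.65 (SE, adjusted p = 0.539 in edgeR), at 0.581, 0.449, 3.78, 0.462 and 0.969 CPM in controls and 1.03, 0.858, 0.572 and 0.600 CPM at 405 min, where control replicate 3 was the highest sample.

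**Figure D3:**
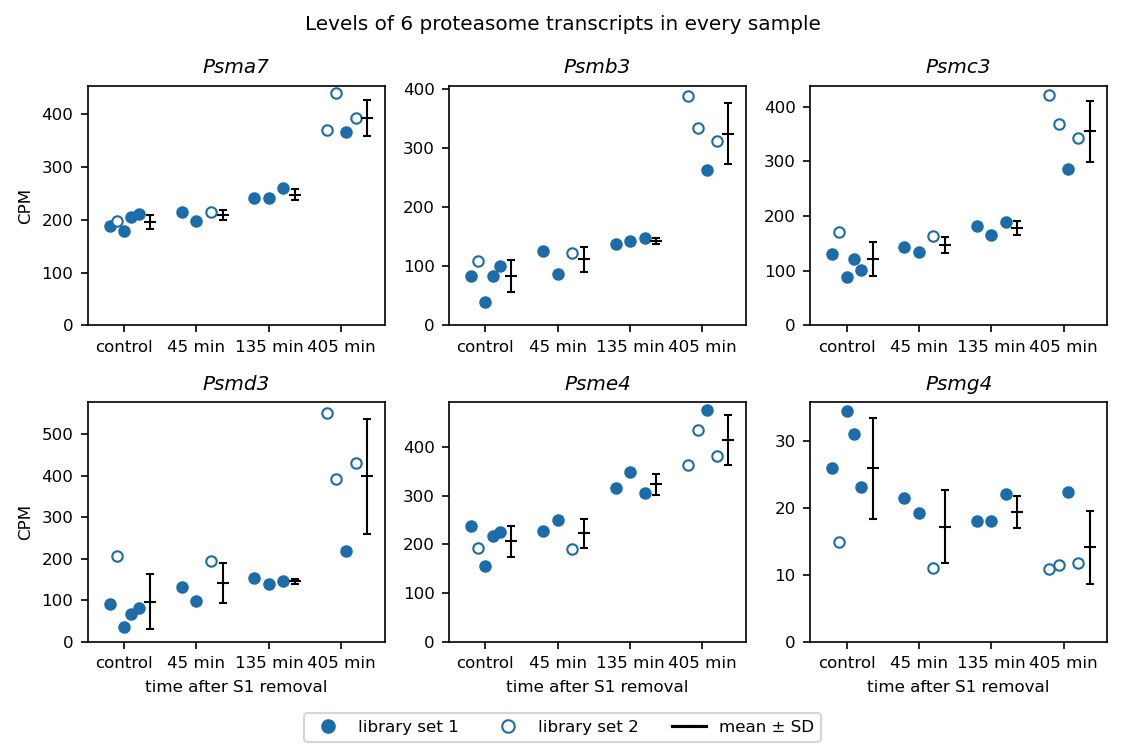
CPM (TMM-scaled, axes from 0) of 6 proteasome genes in every sample by time after S1 removal, filled circles for library set 1 and open circles for set 2, with mean ± SD to the right of each group. The 405-min samples lie above all controls for Psma7, Psmb3, Psmc3, Psmd3 and Psme4, whereas for Psmg4 the set 2 samples of every group, from 10.9 to 14.9 CPM, lie below the set 1 samples.

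The ATPase genes code for the ring that unfolds substrates, and 4 of 6 rose at 405 min. Psmc3 was at 130, 170, 87.9, 121 and 101 CPM in control replicates 1 to 5 and at 144, 134 and 164 CPM at 45 min. It was at 182, 165 and 190 CPM at 135 min and 421, 369, 286 and 343 CPM at 405 min. The late samples lay above all others, and the 135-min samples overlapped only control replicate 2. Its log2 fold change at 405 min was 1.54 ± 0.18 (SE, adjusted p = 9.73e-05 in edgeR), and from 135 to 405 min it was 0.99 ± 0.20 (adjusted p = 0.0156).

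Psmc5 had the largest change of the ATPase genes, 1.62 ± 0.30 (SE, adjusted p = 0.00268 in edgeR). It was at 52.7, 72.2, 14.1, 38.7 and 44.5 CPM in control replicates 1 to 5, 59.1, 57.5 and 63.8 at 45 min, 61.5, 64.1 and 69.8 at 135 min and 160, 144, 105 and 143 CPM at 405 min. Control replicate 3 was far below the other controls, and the late samples lay above all others. Without that control the log2 fold change was 1.38 and the call was kept.

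Psmc4 and Psmc2 showed the opposite relation to library set. Psmc4 was at 292, 245, 274, 308 and 289 CPM in control replicates 1 to 5, 358, 326 and 208 at 45 min, 360, 365 and 388 at 135 min and 423, 505, 626 and 447 CPM at 405 min. Psmc2 was at 299, 226, 167, 288 and 284 CPM in controls, 300, 295 and 201 at 45 min, 416, 405 and 414 at 135 min and 341, 417, 603 and 369 CPM at 405 min. For both, the set 1 sample at 405 min (replicate 3) was the highest of the 15, and for Psmc2 the set 2 samples at 405 min lay on both sides of the 135-min samples. The log2 fold changes at 405 min were 0.83 ± 0.16 (SE, adjusted p = 0.00328 in edgeR) and 0.77 ± 0.20 (adjusted p = 0.0162), and with library set 1.07 ± 0.11 and 1.0 ± 0.16. Psmc4 lost its call when a trend on GC content was removed (0.48 on the log2 scale). Psmc6 was at 0.47 ± 0.25 (adjusted p = 0.166) and, with library set, at 0.94 ± 0.14 (adjusted p = 0.000268 in edgeR). Psmc1, the lowest of the group and a gene with a copy on chromosome 19, was at 0.22 ± 0.16 and 0.39 ± 0.15 and passed in neither fit.

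The non-ATPase genes of the 19S particle ranged from −0.24 ± 0.29 (SE) for Psmd14 to 2.04 ± 0.40 (SE) for Psmd3 at 405 min, and 7 of 14 rose. Among the scaffold and ubiquitin receptor genes of the base, Psmd4, a ubiquitin receptor, was at 104, 164, 63.4, 107 and 132 CPM in control replicates 1 to 5 and at 176, 113 and 157 CPM at 45 min. It was at 161, 161 and 181 CPM at 135 min and 344, 323, 296 and 338 CPM at 405 min, where all 4 samples lay above all others. Psmd2, a scaffold that binds shuttle factors, was at 253, 368, 179, 271 and 250 CPM in controls, 331, 291 and 340 at 45 min, 359, 339 and 354 at 135 min and 704, 637, 528 and 619 CPM at 405 min. Its late samples also lay above all others, and it has a copy on chromosome 10. The log2 fold changes at 405 min were 1.51 ± 0.21 for Psmd4 (SE, adjusted p = 0.000383 in edgeR) and 1.24 ± 0.17 for Psmd2 (adjusted p = 0.000305). Psmd1, the other gene of this kind, was at 0.53 ± 0.20 (adjusted p = 0.0663) and passed with library set, at 0.87 ± 0.12 (adjusted p = 0.000212 in edgeR).

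The lid genes code for the part of the 19S particle that removes ubiquitin, and 4 of 8 rose at 405 min (Psmd3, Psmd8, Psmd11 and Psmd13), with 7 of 8 past the threshold once library set was in the fit. Psmd3 was at 91.3, 207, 34.9, 67.1 and 81.5 CPM in control replicates 1 to 5 and 131, 97.7 and 194 CPM at 45 min. It was at 152, 139 and 145 CPM at 135 min and 551, 392, 218 and 431 CPM at 405 min. All late samples lay above all controls, but the set 2 samples were the highest of the control, 45-min and 405-min groups, and set 1 replicate 3 at 405 min was close to control replicate 2. The log2 fold change was 2.04 ± 0.40 (SE, adjusted p = 0.00343 in edgeR), and with library set it was 1.48 ± 0.24, with the call kept.

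Psmd13 followed the library set in the same way, at 33.1, 69.2, 39.4, 37.6 and 34.2 CPM in control replicates 1 to 5, 44.1, 33.9 and 77.8 at 45 min, 42.2, 44.1 and 41.9 at 135 min and 160, 118, 62.4 and 130 CPM at 405 min. Its set 1 sample at 405 min lay below control replicate 2, so the groups overlapped. The log2 fold change was 1.46 ± 0.29 (SE, adjusted p = 0.00431 in edgeR) and 0.89 ± 0.14 with library set (adjusted p = 0.00044). Psmd8 was at 0.99 ± 0.27 and 0.55 ± 0.16 in the same fits (adjusted p = 0.0195 and 0.0291 in edgeR), and it kept its call in 5 of 9 fits that left out a sample. Psmd11, a gene with a copy on chromosome 2, was at 0.92 ± 0.19 and 1.12 ± 0.19 (adjusted p = 0.00469 and 0.000764 in edgeR). Psmd14, the deubiquitylating enzyme of the lid, was the lid gene that passed in neither fit, at −0.24 ± 0.29 and 0.20 ± 0.26.

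Among the chaperones of the ATPase ring, Psmd9 rose at 405 min, by 0.97 ± 0.17 (SE, adjusted p = 0.00201 in edgeR) and 0.84 ± 0.16 with library set. Psmd5 was at 0.36 ± 0.15 (adjusted p = 0.0979) and passed with library set, at 0.57 ± 0.13 (adjusted p = 0.00942 in edgeR). Psmd10 was at −0.10 ± 0.18 and 0.07 ± 0.18 and passed in neither, although all 3 samples at 135 min lay below all controls.

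**Figure D4:**
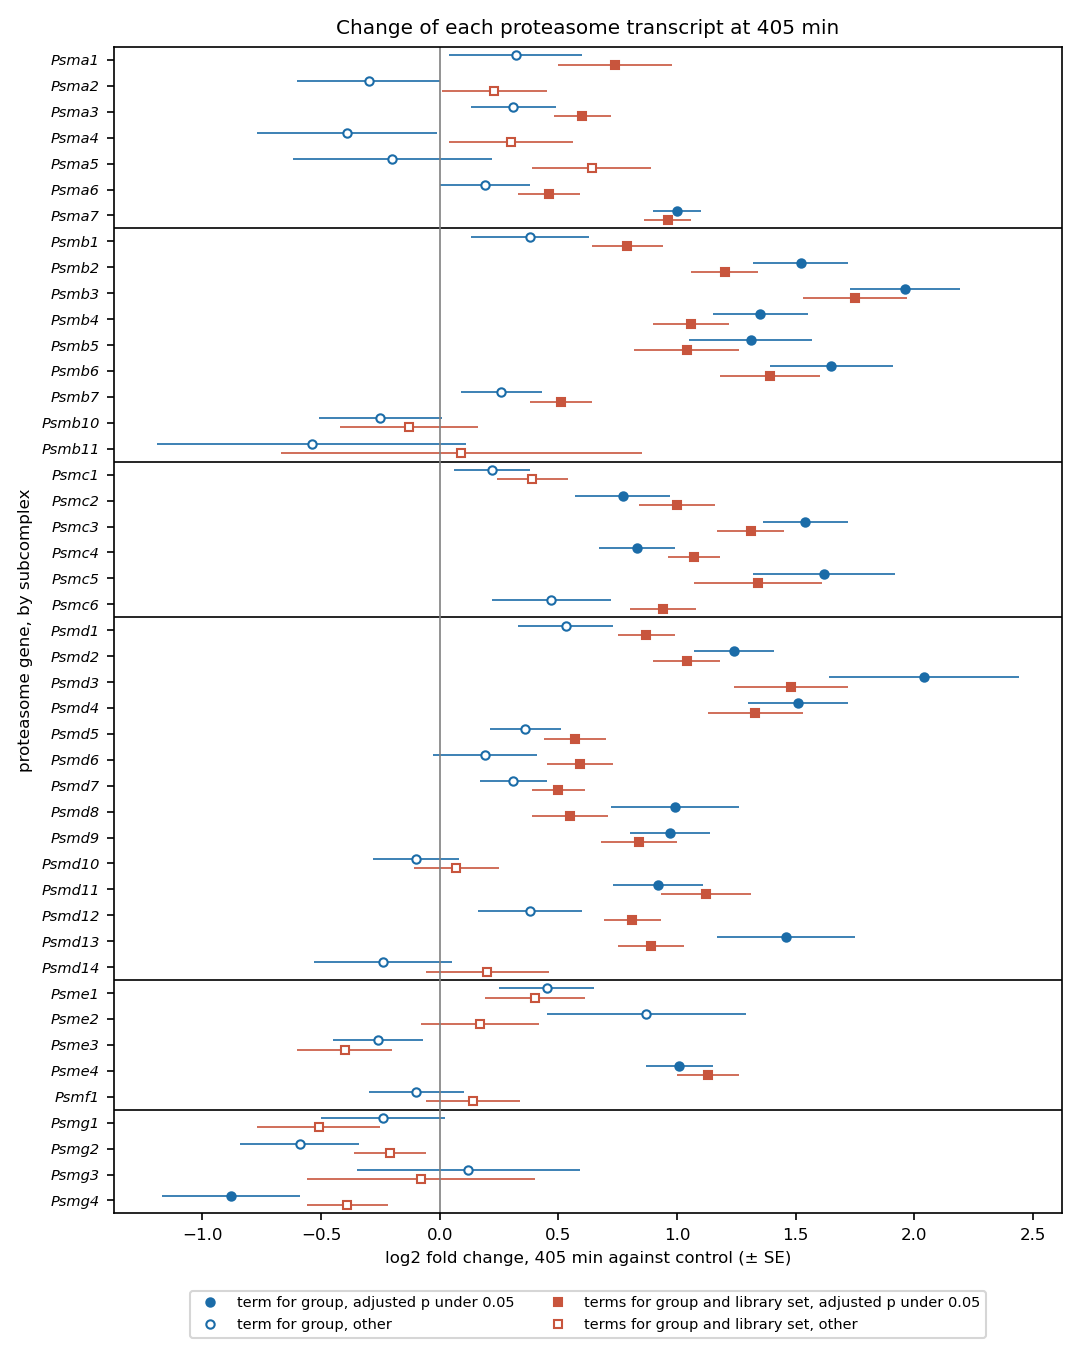
Log2 fold change at 405 min against control (± SE) of 45 proteasome genes by subcomplex, from the edgeR fit with a term for group (blue circles) and from the fit with terms for group and library set (red squares). Filled symbols have an adjusted p under 0.05, for 19 genes in the first fit and 29 in the second, and the Psmg genes lie at or left of 0 in the second fit.

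Of the activators, Psme4, the large nuclear activator that stimulates peptide hydrolysis, rose at both later times. It was at 237, 192, 156, 217 and 226 CPM in control replicates 1 to 5 and 227, 250 and 191 CPM at 45 min. It was at 315, 348 and 306 CPM at 135 min and 363, 435, 476 and 381 CPM at 405 min. Every sample of both later groups lay above every control. The log2 fold change was 0.65 ± 0.15 at 135 min (SE, adjusted p = 0.0478 in edgeR) and 1.01 ± 0.14 at 405 min (adjusted p = 0.000388), and with library set 0.60 ± 0.13 (adjusted p = 0.011) and 1.13 ± 0.13. The call at 135 min was close to the threshold and was kept in 0 of 8 fits that left out a sample. Psme1 and Psme2 form the interferon-inducible activator, and Psme2 was at 19.3, 53.0, 34.5, 17.7 and 18.3 CPM in control replicates 1 to 5, 27.7, 13.1 and 58.8 at 45 min, 26.7, 20.6 and 18.9 at 135 min and 66.4, 55.5, 26.2 and 59.5 CPM at 405 min. The Psme2 values followed the library set in every group that held both, with 53.0 to 66.4 CPM in the 5 set 2 samples and 13.1 to 34.5 CPM in the others. Psme2 has a copy of 99.3% identity on chromosome 11. Its deposited coordinates also took 2 forms over the 15 samples, whereas the other 47 members had 1. The part of these in its values was not tested. Neither passed the threshold at 405 min (Psme1 0.45 ± 0.20, adjusted p = 0.108, and Psme2 0.87 ± 0.42, adjusted p = 0.132 in edgeR), except that both passed without control replicate 2 (0.58 and 1.23). Psme3, the nuclear activator of a different type, had the lowest value of the group, −0.26 ± 0.19 (SE, adjusted p = 0.31 in edgeR). Psmf1, a proteasome inhibitor in vitro, was at −0.10 ± 0.20.

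The Psmg genes, whose products assemble the outer ring and are absent from the finished core, did not rise in either fit. Their median log2 fold change at 405 min was −0.42, and it was −0.30 with library set. Psmg4 was at 25.9, 14.9, 34.5, 31.1 and 23.1 CPM in control replicates 1 to 5 and at 10.9, 11.4, 22.3 and 11.7 CPM at 405 min. It was at 21.4, 19.2 and 11 CPM at 45 min and 18, 18 and 22.1 CPM at 135 min. The 5 set 2 samples were the 5 lowest, and the set 1 sample at 405 min lay within 1 CPM of control replicate 5. The log2 fold change was −0.88 ± 0.29 (SE, adjusted p = 0.0416 in edgeR), and with library set it was −0.39 ± 0.17 (adjusted p = 0.154), so the call was not kept. Psmg3, the lowest gene of the group, had the highest value, 0.12 ± 0.47 (SE, adjusted p = 0.86 in edgeR). Psmg1 and Psmg2 were at −0.24 ± 0.26 and −0.59 ± 0.25 (adjusted p = 0.499 and 0.09 in edgeR).

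Which members passed the threshold at 405 min moved with the GC content of their exons and with library set. The 18 higher members had a median GC content of 51.5%, and the other 27 tested members one of 47.3%, beside 49.1% over all tested genes. Of the 18, 9 were higher and 2 lower in library set 2, whereas of the other 27, 1 was higher and 17 were lower in set 2. The 11 members that passed only once library set was in the fit were Psma1, Psma3, Psma6, Psmb1, Psmb7, Psmc6, Psmd1, Psmd5, Psmd6, Psmd7 and Psmd12, with a median GC content of 45.5%, and all 11 were lower in set 2. Within set 1 alone (1 sample at 405 min against 4 controls, with the spread pooled over the set) 15 members were higher, beside 1.17% of all genes, and within set 2 alone (3 samples against 1 control) 16 were higher, beside 1.9%. In the set 2 fit the spread comes from the 405-min samples alone, and in both fits the lone sample is assumed to vary like the others. Removing a trend on GC content per sample gave 23 members higher and 1 lower, beside 11.3% and 16.1% of all genes. The labels name the same kit for all 15 samples and do not say what the library sets are, and what part they have in the results with group alone was not tested beyond these fits.

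**Figure D5:**
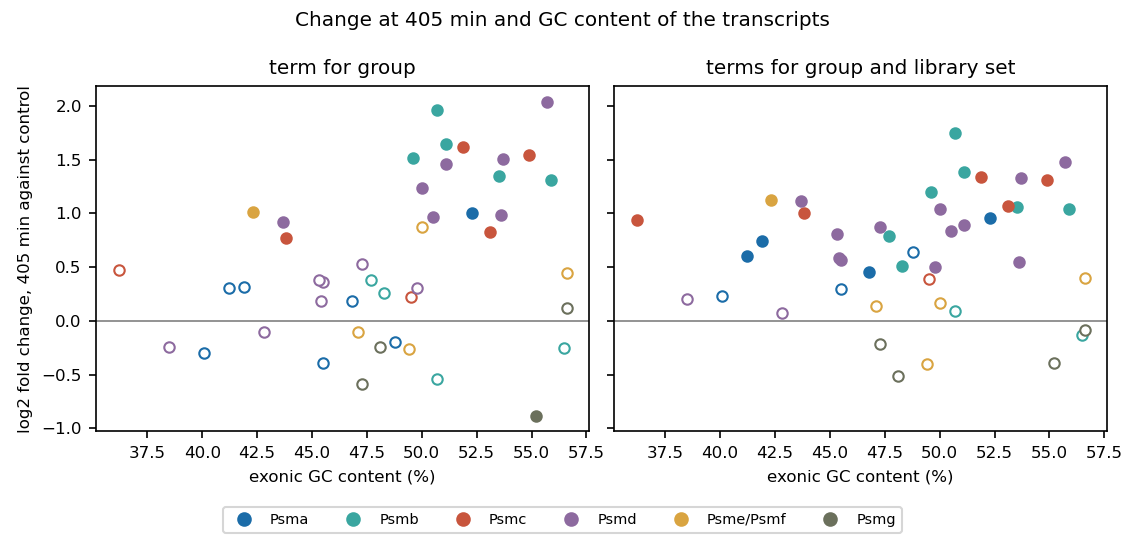
Log2 fold change at 405 min against exonic GC content (%) for 45 proteasome genes coloured by subcomplex, filled where the adjusted p was under 0.05, in the fit with group (left) and with group and library set (right). At left all filled points except those of Psme4, Psmd11 and Psmc2 lie at 49.6% GC or more, and at right they extend down to 36.2%, the GC content of Psmc6.

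In the direct comparison of 405 with 135 min, the 9 genes higher at 405 min were Psma7, Psmb2, Psmb3, Psmb4, Psmc3, Psmd2, Psmd4, Psmd9 and Psmd13, with log2 fold changes from 0.66 ± 0.12 (SE) for Psma7 to 1.46 ± 0.35 (SE) for Psmd13. Psmc2 and Psme4 were at 0.07 ± 0.23 and 0.36 ± 0.16 between these times and did not pass (adjusted p = 0.856 and 0.173 in edgeR). All 135-min samples belong to library set 1, so within a set the comparison rests on 1 sample at 405 min. With library set in the fit 8 members were higher at 405 min, beside 1.66% of all genes, of which 4 were among the 9 above (Psma7, Psmb2, Psmc3 and Psmd13).

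Of 18 genes whose products assist the proteasome or activate NRF1, 17 were tested, and 7 rose and 2 fell at 405 min (edgeR, adjusted p under 0.05), beside 9.99% and 13.4% of all genes. Vcp, the segregase that extracts ubiquitylated proteins, was at 580 ± 179 CPM in controls (SD, n = 5) and 1500 ± 221 CPM at 405 min (SD, n = 4), and its log2 change was 1.37 ± 0.20 (SE, adjusted p = 0.000434). Ubqln1, a shuttle factor, was at 1.24 ± 0.17 (SE, adjusted p = 0.000389), and the deubiquitylating enzyme Usp14 was at 0.76 ± 0.11 (SE, adjusted p = 0.000361). The smaller rises were those of the ubiquitin receptor Adrm1 (0.56 ± 0.17 SE, adjusted p = 0.0291), the adaptor ECM29 (AI314180, 0.55 ± 0.11 SE, adjusted p = 0.00395), the core assembly factor Pomp (0.38 ± 0.13 SE, adjusted p = 0.0474) and the shuttle factor Rad23b (0.38 ± 0.11 SE, adjusted p = 0.0277). The genes that fell were Uchl5 (−1.49 ± 0.51 SE, adjusted p = 0.0469), a deubiquitylating enzyme of the 19S particle, and the ligase Ube3c (−0.37 ± 0.13 SE, adjusted p = 0.0451), and neither passed with library set. Nfe2l1 itself was at 0.65 ± 0.29 (SE, adjusted p = 0.104). With library set 7 rose and none fell, beside 6.17% and 6.87% of all genes, with Txnl1 in and Rad23b out. At 135 min none passed in the fit with group (median log2 fold change 0.13), and Vcp and Ubqln1 passed with library set.

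The genes whose log2 CPM was most like that of Psmb3 over the 15 samples were Psmd4 (Pearson r = 0.989), Psmd2 (0.980), Nmt1 (0.978), Ak1 (0.977) and Vcp (0.973), so 3 of the first 5 are proteasome genes or their partner. Psmb6 ranked 11 among all genes (r = 0.967). These are descriptions over 15 samples that share library sets and depth. The 48 genes lie on 16 chromosomes, with 8 on chromosome 11 (16.7%, beside 7.81% of all genes), among them Psmb3 (chr11:97564748-97574814), Psmd3 (chr11:98543868-98557292), Psmb6 (chr11:70338859-70341360) and Psme4 (chr11:30671775-30780361, mm9, as deposited). All 48 are annotated as protein-coding genes.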

How the data were processed

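Poly(A) RNA was selected with oligo(dT) beads per the study's methods, which name 2 ways of making libraries, a random-hexamer protocol and a NuGEN Encore kit. The labels name the Encore kit for all 15 samples, and the methods do not say which samples had which preparation. The strand setting of the counting is not given in the sources used here. The authors aligned reads to mm9 (aligner not given in the sources used here) and counted them over RefSeq genes. The deposited read counts are estimated counts, of which 8.7% to 15.6% per sample have a fraction, and they were rounded to whole numbers. The RPKM values deposited by the authors were used for levels between genes. The Z score and the ratio to the root mean square deposited by the authors were not used.

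Genes with at least 1 rounded count in every sample (10276 of 20207) were tested with edgeR 4.0.16 in R 4.3.3 (TMM factors, quasi-likelihood, 1 mean per group over all 15 samples, Benjamini-Hochberg over all genes, threshold 0.05), after testing the script on simulated data. CPM is scaled with TMM factors. SE is that of the log2 fold change. Alternatives were library set as a covariate, RLE scaling, DESeq2 1.42.0, other filters, only the compared groups, a replicate block, each library set alone, a GC trend as an offset, and leaving out each sample. Leaving out control replicate 3 with library set as a covariate was chosen after seeing the data. A sample was put in library set 2 where the slope of log2 CPM was above −0.5 per 10 points of exonic GC content, which is known for 9853 of the tested genes. Counts of 3 set the limit for a gene at 0, and intervals cover counting error only.

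Copies are matches of at least 95% identity over 80% of the coding sequence in the mm9 reference genome (minimap2 2.31). Promoters came from RefSeq on GRCm38.p6. Gene positions are those of the deposited tables (mm9). Members named with values are those past the threshold in any comparison, the highest and lowest of each subcomplex at 405 min, the inducible genes with their partners, and those not tested. Per-sample values are given for up to 4 called members of a subcomplex and for Psmb3, and some further genes were added after their values were seen. Partner genes are given where they passed at 405 min. The members and lists were chosen with earlier results of these data known. Values of some single genes of the marker and partner lists are not reported here.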

Additional observations from a re-analysis of the deposited data

Results flagged for a closer look

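In 8 of 90 gene-by-group sets of 4 or 5 samples, 1 sample lay far from the others, by the share of the group's range of log2 CPM that its gap to the nearest sample took up. Chance gives this in about 1 in 20 sets. Among controls these were Psmb3 (control replicate 3, low, 0.741 of the range), Psmg3 (replicate 3, 0.806), Psmd13 (replicate 2, high, 0.763), Psme3 (replicate 5, 0.760) and Psmg1 (replicate 1, 0.742). At 405 min they were Psmd9 (replicate 2, 0.881), Psmg3 (replicate 1, 0.845) and Psmg4 (replicate 3, high, 0.909), and replicate 3 is the set 1 sample of that group.

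The change from control differed between 135 and 405 min for 9 members (edgeR quasi-likelihood test, adjusted p under 0.05). This is the same test as the direct comparison of 405 with 135 min above, so it repeats those 9 calls and adds no further result. The differences, 405 minus 135 min on the log2 scale, were 1.46 for Psmd13, 1.25 for Psmb2, 1.19 for Psmb3, 1.06 for Psmb4, 0.99 for Psmc3, 0.96 for Psmd4, 0.83 for Psmd2, 0.72 for Psmd9 and 0.66 for Psma7. The 135-min samples are all of library set 1 and 3 of 4 samples at 405 min are of set 2, and none of the 9 calls was kept in every fit that left out a sample.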

How the results depend on the processing

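Of the 18 members higher at 405 min, 17 kept their call in all 9 fits that left out a sample, and 8 kept it in every setting tried, the fits within 1 library set included, which rest on a lone sample in 1 group (Psma7, Psmb2, Psmb3, Psmb6, Psmc3, Psmd3, Psmd4 and Psme4). The count of 18 became 29 with library set as a covariate and 34 when control replicate 3 was also left out. The 1 lower call became 0 in both of these fits, without a filter on low counts, with only the compared groups, with the replicate block and within either set, and it ranged from 0 to 2 when a sample was left out (2 without control replicate 2 or without 405-min replicate 3, and 0 without each other sample). At 135 min the 1 higher call became 8 with library set, 11 without control replicate 3 as well, 5 within set 1, 4 with the GC offset, 2 with DESeq2, and 0 with a CPM filter, without a filter, with only the compared groups and with the replicate block, alone or with the GC offset. It ranged from 0 to 2 when a sample was left out (2 without control replicate 2, otherwise 0). The 9 calls of 405 against 135 min became 26 with library set and without control replicate 3, 16 with only the compared groups, 15 with the GC offset, 14 with DESeq2, 5 without a filter, and 0 with the replicate block and within set 1. They ranged from 0 (without 135-min replicate 1 or 2) to 13 (without 405-min replicate 3), with 1 without 135-min replicate 3 and 3, 4 and 2 without 405-min replicates 1, 2 and 4. The causes were not tested.

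The 1 Psma gene higher at 405 min became 4 with library set, 7 without control replicate 3 as well, 3 with the GC offset and 2 within set 1, within set 2 and with the replicate block and the GC offset. The 7 Psmd genes became 12 and 13 with library set and without control replicate 3 as well, the 5 Psmb genes 3 within set 1, and the Psme and Psmf count ranged from 1 to 3 when a sample was left out (3 without control replicate 2). The Psma median (0.19) became 0.67 within set 2. The Psmb median (1.31) became 0.90 with library set and without control replicate 3, 0.86 within set 2, 0.87 with the GC offset and 0.86 with the replicate block as well. The Psmc median (0.80) became 1.03 with library set, 1.02 without control replicate 3 as well, 1.15 within set 1, 1.03 under the GC offset and 1.04 once the block was added. The Psmd median (0.73) became 0.59 under the GC offset and 0.54 once the block was added, the Psme and Psmf median (0.45) became −0.03 in both, and the Psmg median (−0.42) became −0.21 within set 1.

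Direction turned only for members not called at 405 min with group alone. With library set these were Psma2 (0.23), Psma4 (0.30), Psma5 (0.64), Psmb11 (0.09), Psmd10 (0.07), Psmd14 (0.20), Psmf1 (0.14) and Psmg3 (−0.08), and without control replicate 3 as well Psma2 (0.42), Psma4 (0.51), Psma5 (0.84), Psmb10 (0.05), Psmb11 (0.62), Psmd10 (0.15), Psmd14 (0.42), Psmf1 (0.21) and Psmg3 (−0.27). Within set 1 they were Psma2 (0.01), Psma4 (0.10), Psma5 (0.37) and Psmd10 (0.11), and within set 2 Psma2 (0.57), Psma4 (0.67), Psma5 (1.03), Psmb11 (0.86), Psmd10 (0.07), Psmd14 (0.52), Psmf1 (0.52) and Psmg3 (−0.49). With the GC offset they were Psma2 (0.17), Psmd10 (0.20), Psmd14 (0.32), Psme1 (−0.06) and Psmg3 (−0.34), and with the replicate block as well Psma2 (0.14), Psmd10 (0.17), Psmd14 (0.24), Psme1 (−0.03) and Psmg3 (−0.28). When a sample was left out, Psma5 ranged from −0.61 to 0.13, Psmb11 from −0.77 to 0.28, Psmd10 from −0.20 to 0.00, Psmd14 from −0.40 to 0.09 and Psmg3 from −0.16 to 0.33.

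Samples that share a replicate number did not deviate together on average (mean correlation −0.11 over 19 pairs, 4 of them above 0.1). The mean was 0.028 over 64 pairs of different numbers. Samples of the same number often fell in different library sets, so these correlations cannot show whether they shared a culture or a day. With the replicate block 16 members were higher at 405 min. The comparisons with 135 min could not be fitted within set 2, which holds no such sample. Psmb8 and Psmb9 had too few counts to test.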
